A study of Mus musculus with 15 samples.

Results

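L2P and L1P are 2 mouse mammary epithelial lines recovered from lung, and comparing them shows what differed after a second round of growth in mice. The comparison takes the 3 L2P arrays and the 3 L1P arrays, 6 of the 15 arrays in the series, and all 18193 genes measured, each read from its probe set of highest mean signal. L2P cells came out of the lungs of mice whose mammary fat pads had received L1P cells. L1P cells came out of the lungs of mice whose fat pads had received E1KD cells. The other lines are M1P, taken from a fat pad tumour of E1KD cells, E1KD itself, and NMuMG, the non-tumorigenic mammary gland line from which all were made and the only one that is wild type. L2P, L1P, M1P and E1KD all carry silenced hnRNP E1, so silencing is shared by both sides of this comparison. The labels name no parallel derivations of a line and do not say whether its 3 arrays come from separate cultures or mice, so p-values measure only how far these arrays scatter, which may be technical. All cells were grown in the same serum-containing medium before RNA extraction.

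In vivo passaging selects, from a mixed population, cells that seed an organ and grow there, and a line returned to culture keeps only differences that persist outside the animal. hnRNP E1, encoded by Pcbp1, is an RNA-binding protein that holds back translation of certain messages, and its loss is used as a model of epithelial-mesenchymal transition. Known features of lung-seeking mammary lines include secreted chemokines, which call in myeloid cells, and altered adhesion, matrix and growth factor genes.

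Levels are log2 signals, so a difference of 1 is 2-fold. The sign ± gives an SD over 3 arrays where a level is stated and a standard error where a difference is. A gene is said to have risen or fallen in L2P, relative to L1P, when limma's Benjamini-Hochberg adjusted p over all genes was under 0.05. Pcbp1, the silenced gene, read 8.30, 7.95 and 8.21 in the L2P arrays and 8.78, 8.01 and 8.69 in the L1P arrays, against a mean of 12.68 in NMuMG. The lung lines overlapped (difference -0.34 ± 0.22, 95% interval -0.82 to 0.13), and both lay below NMuMG. Of 9 mammary epithelial markers, Cdh1, Epcam, Krt8 and Krt18 had signals of 5 or more, and the other 5 were under 5 in both lines.

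L2P array 1 stood apart from its fellows. In it 3056 genes (16.8%) lay more than 0.5 from the median of the line, against 83 and 127 in L2P arrays 2 and 3, and 177, 547 and 593 in the L1P arrays. Over all genes it correlated at 0.983 with each other L2P array and at 0.98 to 0.99 with the L1P arrays. L2P arrays 2 and 3 correlated at 0.998 with each other. The part of this array in each result was not tested beyond leaving it out; calls of passing genes that end without it are given beside the results, as are the medians of the lists described as leaning one way.

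The number of genes called between the lines depended on how the spread of the arrays was handled. Between L2P and L1P 26 of 18193 genes (0.143%) passed, 17 higher in L2P (0.0934%) and 9 lower (0.0495%), and 414 (2.28%) had an unadjusted p under 0.05. All 26 differed at least 2-fold, and in all 26 the 3 L2P arrays lay on one side of the 3 L1P arrays. Over all genes the arrays were so separated in 1067 (5.86%) with L2P higher and in 621 (3.41%) with L2P lower. The median difference of all genes was 0.02, with 10211 of the 18193 genes higher in L2P and 7982 lower. Without L2P array 1 that median was -0.01, with 8442 higher and 9751 lower. Without L2P array 1, 34 genes passed (0.187%), 23 of the 26 among them; Bscl2, Car12 and Cfi were lost. Without the 3 M1P arrays, whose spread enters the shared error, 69 genes passed (0.379%), all 26 among them. With limma array weights, which give less weight to arrays that scatter more, 183 genes passed, 109 higher and 74 lower in L2P, again with all 26 among them.

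**Figure D1:**
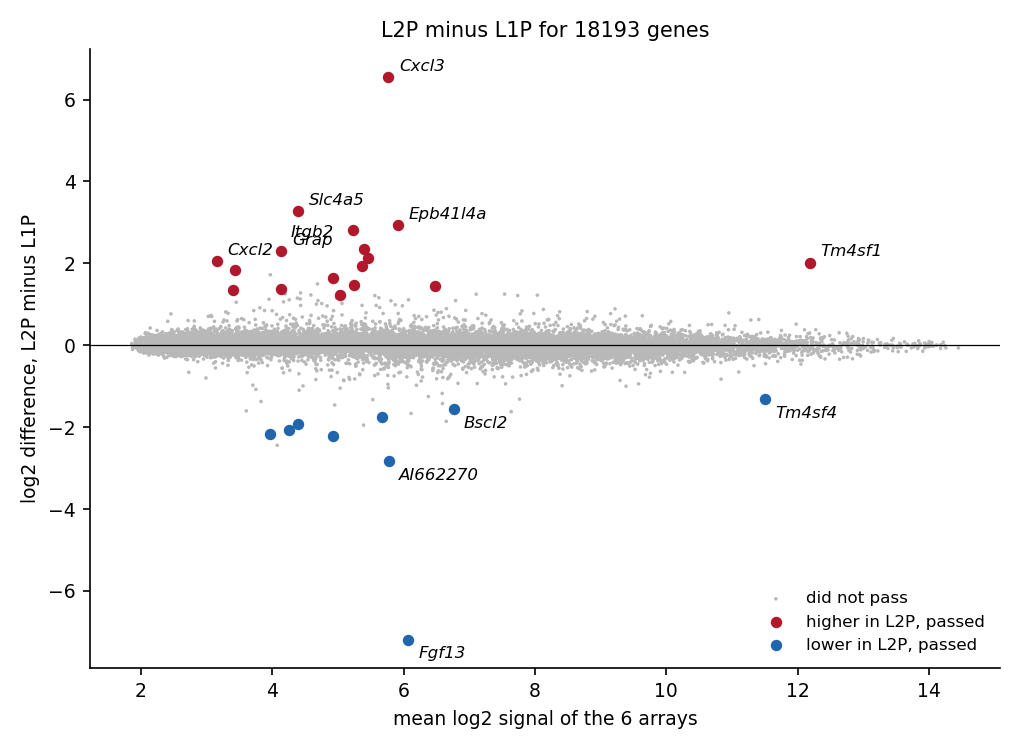
Each point is 1 of 18193 genes, placed by its mean log2 signal over the 6 arrays (horizontal) and its log2 difference, L2P minus L1P (vertical); red points are the 17 genes that rose in L2P and blue points the 9 that fell. Cxcl3 at 6.54 and Fgf13 at -7.19 lie farthest from 0, and Tm4sf1 and Tm4sf4 are the passing genes of highest signal.

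The genes that rose include neighbouring chemokines, several adaptor and surface proteins, an inflammatory caspase, a membrane protein of motile cells, and transport and lipid enzymes. The genes that fell include a factor that binds sodium channels, a guidance-type surface protein, a MAGE gene, a chondroitin sulfotransferase and a lipid droplet protein. Of the 17 rises, 15 had a mean under 5 in L1P, and of the 9 falls, 7 had a mean under 5 in L2P. No detection calls were used, so a signal at that level was not separated from none, and folds against it are compressed.

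**Figure D2:**
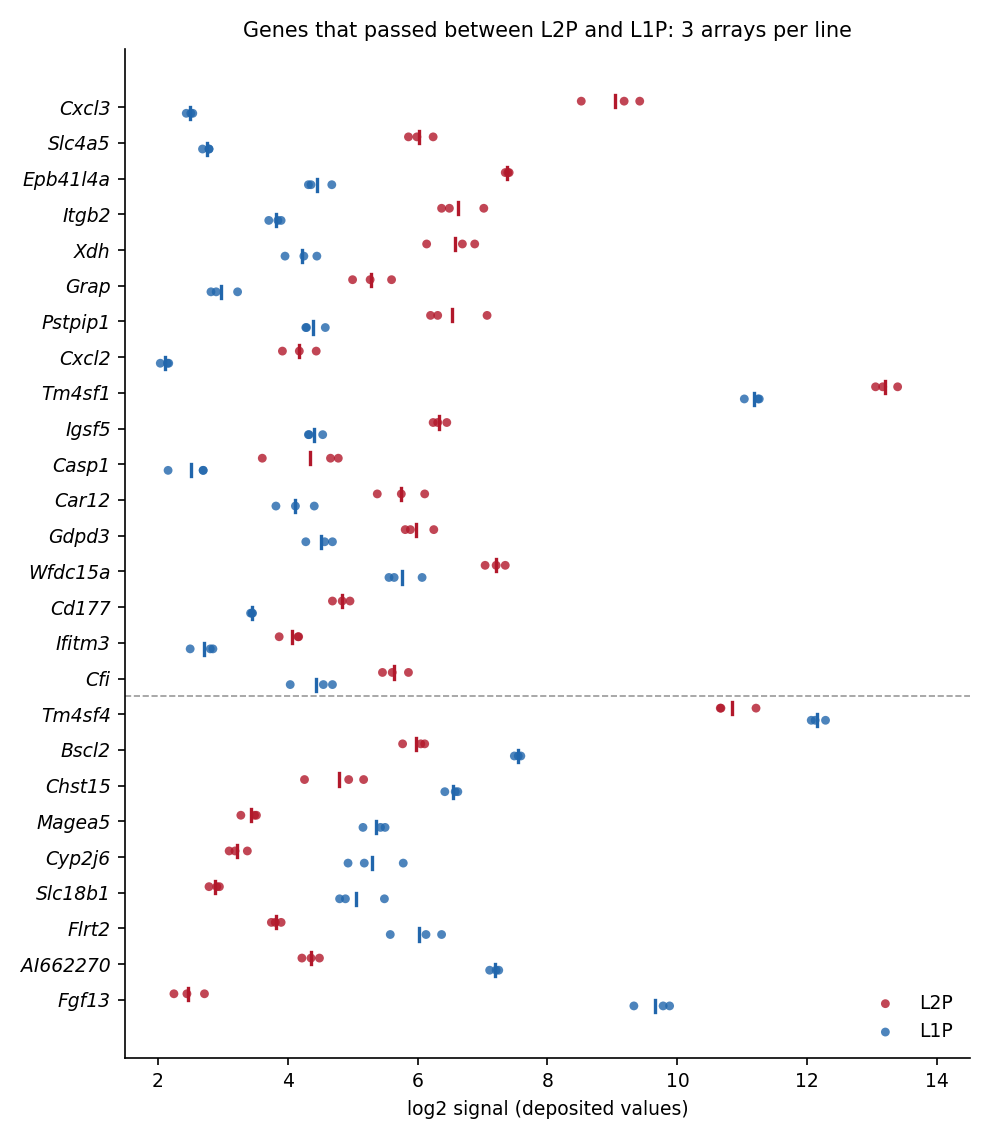
The 26 genes that passed, ordered by difference, with the log2 signal of each L2P array (red, upper row of each gene) and each L1P array (blue, lower row); vertical ticks are line means and the dashed line parts the 17 rises from the 9 falls. No gene's arrays overlap between the lines; Cxcl3 and Fgf13 have the widest gaps.

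Cxcl3 and Cxcl2 encode CXC chemokines that draw neutrophils through the receptor Cxcr2. The genes lie in a chemokine cluster on chromosome 5, with Cxcl15 and Cxcl1 between them, and Cxcl1 binds the same receptor. The bases upstream of Cxcl3, Cxcl2 and Cxcl1 are shown because these 3 neighbours share a motif and differ in what they did. Each is the stretch of 250 bases before the transcription start from RefSeq (GRCm38.p6), on the plus strand, written 5′ to 3′ and ending at the base before the start: chr5:90785851-90786100 for Cxcl3, chr5:90903649-90903898 for Cxcl2 and chr5:90890995-90891244 for Cxcl1. Capitals mark the match to the consensus of NF-kB, a transcription factor of inflammatory signalling, searched on both strands.
Cxcl3: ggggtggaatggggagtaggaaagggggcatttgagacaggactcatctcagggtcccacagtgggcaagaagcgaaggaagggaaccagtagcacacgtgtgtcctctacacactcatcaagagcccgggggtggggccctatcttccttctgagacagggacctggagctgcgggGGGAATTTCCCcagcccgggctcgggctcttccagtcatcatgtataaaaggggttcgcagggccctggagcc
Cxcl2: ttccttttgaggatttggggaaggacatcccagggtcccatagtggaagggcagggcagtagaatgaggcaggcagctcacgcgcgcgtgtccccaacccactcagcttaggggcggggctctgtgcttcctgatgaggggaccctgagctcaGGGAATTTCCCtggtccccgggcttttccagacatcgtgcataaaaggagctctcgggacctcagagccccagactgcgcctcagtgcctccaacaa
Cxcl1: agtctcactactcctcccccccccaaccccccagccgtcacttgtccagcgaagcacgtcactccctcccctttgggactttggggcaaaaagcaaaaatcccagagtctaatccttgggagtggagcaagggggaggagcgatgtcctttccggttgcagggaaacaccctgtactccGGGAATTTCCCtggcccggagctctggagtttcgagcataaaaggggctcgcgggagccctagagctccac
The capital run is the same 11 bases in all 3 and starts 73 bases before the start of Cxcl3, 97 before Cxcl2 and 71 before Cxcl1. A match stands in 3.9% of all 32851 windows of this length in the table and in 5.34% of the 14452 genes on the array with an entry. Among genes that rose, 3 of the 11 with an entry held one (Cxcl3, Cxcl2 and Tm4sf1), as did 3 of the 8 that fell (Fgf13, Cyp2j6 and Magea5). These counts are small, Cxcl3 and Cxcl2 are neighbours with the same run, and enrichment was not tested. A match is a string of letters and says nothing of binding.

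Cxcl3 was among the lowest signals in L1P and high in L2P. It read 9.18, 9.42 and 8.52 in the L2P arrays, against 2.44, 2.51 and 2.54 in the L1P arrays. The lowest L2P array stood 5.98 above the highest L1P array, and the gene rose 93.2-fold (6.54 ± 0.65, adjusted p = 0.000331). Means were 7.10 ± 1.96 in M1P, 2.49 ± 0.13 in E1KD and 2.74 ± 0.13 in NMuMG, so that the tumour line was high as well, with wide spread. Cxcl2 read 4.18, 4.44 and 3.92 in L2P and 2.17, 2.04 and 2.15 in L1P. It rose 4.17-fold (2.06 ± 0.13, adjusted p = 2.42e-06), and no M1P, E1KD or NMuMG array reached the L2P level.

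Cxcl1, with the same motif, was high in every line. It read 11.67, 11.88 and 11.31 in L2P and 11.74, 12.06 and 10.83 in L1P, and the arrays overlapped (0.08 ± 0.38, 95% interval -0.73 to 0.89). Cxcl5, a further neutrophil attractant of the cluster, averaged 12.47 in L2P and 12.81 in L1P and did not pass. Cxcl15, the platelet factor Pf4 and the platelet basic protein gene Ppbp did not pass either, with differences of -0.04, 0.20 and -0.58. The receptor Cxcr2 averaged 3.02 in L2P and 2.98 in L1P. Of 28 cytokine and chemokine genes, only Cxcl3 and Cxcl2 rose and none fell; the median difference of the list was 0.06, against 0.02 over all genes, and 0.01 without L2P array 1. The myeloid attractant Ccl2 averaged 10.80 in L2P and 10.85 in L1P, and Il33, an alarmin of epithelia, 9.59 in L2P and 10.23 in L1P (-0.64, adjusted p = 1).

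Itgb2, Pstpip1 and Grap, each known mainly from leukocytes, also rose; they were put side by side after they had passed and are no list of their own. Itgb2, the beta-2 integrin chain, read 7.02, 6.37 and 6.49 in L2P against 3.85, 3.90 and 3.71 in L1P. It rose 7.0-fold (2.81 ± 0.33, adjusted p = 0.0016). The L1P arrays lay below all others, with means of 5.08 ± 0.92 in M1P, 4.42 ± 0.06 in E1KD and 4.44 ± 0.21 in NMuMG. M1P array 1 read 6.07. The alpha partners of Itgb2 were low in both lung lines. Itgal averaged 3.48 in L2P and 3.56 in L1P, Itgam 2.64 and 2.81, and Itgax 3.12 and 3.21, in the same order. Pstpip1, an adaptor that links actin to phosphatases in blood cells, read 7.07, 6.31 and 6.20 in L2P and 4.29, 4.58 and 4.28 in L1P. It rose 4.41-fold (2.14 ± 0.24, adjusted p = 0.000987), with means of 4.96 ± 0.46 in M1P, 4.41 in E1KD and 4.41 in NMuMG. Grap, a Grb2-like adaptor of lymphocyte signalling, rose 4.94-fold, with 5.60, 5.00 and 5.27 in L2P and 3.23, 2.90 and 2.82 in L1P. For Itgb2, Pstpip1 and Grap array 1 was the highest of the L2P arrays, and each also passed without it (adjusted p = 0.012, 0.0023 and 8.57e-05).

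Cd177, a neutrophil surface glycoprotein, also rose, 2.61-fold, with 4.84, 4.69 and 4.96 in L2P against 3.45, 3.43 and 3.46 in L1P. Cd177, Ifitm3 and Cfi passed but fall outside the rule for naming genes and were picked out after their values were seen. Leukocyte markers did not pass. Of 12 measured, limma called 0 and 0 had an unadjusted p under 0.05. Those shares were 0.143% and 2.28% over all genes, so counts of 0 among 12 say little. Of the 12, 8 were under 5 in both lines. The summed signal ranged from 9.97 to 10.66 in L2P and from 9.82 to 10.43 in L1P. Ptprc, the pan-leukocyte CD45 gene, averaged 2.46 in L2P and 2.63 in L1P. Cd68, of lysosomes in macrophages and other cells, averaged 6.18 in L2P and 5.65 in L1P (0.53, adjusted p = 1).

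Casp1, the protease that matures interleukins 1 beta and 18, rose 3.56-fold (adjusted p = 0.0152). It read 3.61, 4.66 and 4.78 in L2P and 2.70, 2.70 and 2.16 in L1P, with L2P array 1 the nearest to L1P. The adjusted p was 0.000699 without that array and 0.0518 to 0.131 without L2P array 2 or 3 or any 1 L1P array. Its substrates and partners did not pass: Il18 differed by 0.58, Il1b by 0.06, Casp4 by 0.50, the sensor Nlrp3 by -0.07, the adaptor Pycard by -0.04 and the pore protein Gsdmd by 0.25. Ifitm3, which restricts entry of enveloped viruses, rose 2.54-fold, with 3.87, 4.17 and 4.16 in L2P and 2.81, 2.85 and 2.50 in L1P (adjusted p = 0.0179; 0.0607 to 0.158 without L2P array 2 or 3 or any 1 L1P array). Its close relative Ifitm2 averaged 9.51 in L2P and 9.36 in L1P; the family shares sequence, so the identity of the Ifitm3 signal is uncertain. Cfi, the protease that inactivates complement C3b, read 5.86, 5.46 and 5.61 in L2P and 4.55, 4.69 and 4.04 in L1P (adjusted p = 0.035). Without any 1 L2P, L1P, E1KD or NMuMG array, or M1P array 2, the adjusted p for Cfi was 0.0518 to 0.188. Of 25 interferon response genes, limma called 0 and 3 had an unadjusted p under 0.05, against 0.143% and 2.28% of all genes. The arrays were separate with L2P higher in 4 of the 25, against 5.86% of all genes. The median difference of the list was 0.15. Without L2P array 1 that median was 0.03, with 13 of the 25 genes higher in L2P.

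Tm4sf1 and Tm4sf4 encode related tetraspan surface proteins of the L6 family and lie on chromosome 3; they were the strongest signals among the 26 and moved in opposite directions. Tm4sf1, known from motile cells and vessels, read 13.39, 13.05 and 13.16 in L2P against 11.26, 11.03 and 11.24 in L1P. It rose 4.06-fold (2.02 ± 0.18, adjusted p = 7.73e-05). Its mean was 13.35 in M1P, 6.44 in E1KD and 12.12 in NMuMG, so L2P stood near the tumour line and E1KD far below all others. Tm4sf4 read 11.21, 10.67 and 10.66 in L2P and 12.12, 12.28 and 12.06 in L1P. It fell 2.48-fold (-1.31 ± 0.19, adjusted p = 0.0086), with means of 11.64 to 12.42 in the other lines. The adjusted p for Tm4sf4 was 0.0526 to 0.0733 without L2P array 2 or 3 or L1P array 1 or 2.

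A pair of further rises were in membrane-associated genes of epithelia. Epb41l4a, a FERM-domain protein of the band 4.1 family, read 7.35, 7.41 and 7.39 in L2P and 4.36, 4.68 and 4.32 in L1P, a 7.6-fold rise (adjusted p = 1.44e-06). Here L1P was the line that stood apart, since means were 6.74 in M1P, 7.0 in E1KD and 7.77 in NMuMG. Igsf5, an immunoglobulin-type protein of tight junctions, read 6.31, 6.24 and 6.45 in L2P and 4.32, 4.33 and 4.54 in L1P. It rose 3.82-fold (adjusted p = 2.78e-06), and the other lines averaged 3.89 to 4.62. Of 29 epithelial junction and polarity genes, limma called 0 and 2 had an unadjusted p under 0.05, against 0.143% and 2.28% of all genes. Cdh1, E-cadherin, averaged 10.47 in L2P and 10.71 in L1P.

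The remaining rises were 4 transport and enzyme genes and Wfdc15a. Slc4a5, a sodium bicarbonate cotransporter, read 6.24, 5.86 and 5.99 in L2P and 2.79, 2.79 and 2.69 in L1P. It rose 9.66-fold (3.27 ± 0.21, adjusted p = 2.72e-06), and the other lines, at 2.73 to 2.97, lay near L1P. Its relatives Slc4a4 and Slc4a2 did not pass, with differences of -0.46 ± 0.72 and -0.05. Car12, a membrane carbonic anhydrase that makes bicarbonate outside the cell, read 6.11, 5.75 and 5.38 in L2P and 4.12, 4.41 and 3.82 in L1P. It rose 3.1-fold (adjusted p = 0.0225), and 1 of its other 2 probe sets had overlapping arrays. NMuMG, at 6.44, lay above L2P, and E1KD, at 4.28, near L1P. The adjusted p for Car12 was 0.102 to 0.178 without L2P array 1 or 2 or L1P array 1 or 3.

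Xdh, xanthine oxidoreductase, which breaks down purines and takes part in milk fat secretion, read 6.14, 6.69 and 6.88 in L2P and 3.96, 4.45 and 4.25 in L1P. It rose 5.1-fold (2.35 ± 0.34, adjusted p = 0.0086) and was the only 1 of 8 mammary secretory genes to pass. Means of Xdh were 4.81 ± 0.81 in M1P, 4.64 in E1KD and 4.57 in NMuMG. Its adjusted p was 0.0571 to 0.0695 without L2P array 2 or 3 or L1P array 1 or 3. Gdpd3, a lysophospholipase that makes lysophosphatidic acid, rose 2.78-fold, with 6.25, 5.81 and 5.89 in L2P and 4.69, 4.28 and 4.57 in L1P. Wfdc15a, a small protein of the whey acidic protein type, rose 2.72-fold, with 7.35, 7.21 and 7.04 in L2P and 5.64, 6.07 and 5.56 in L1P. For Wfdc15a both lung lines lay above M1P, E1KD and NMuMG, which averaged 4.92, 4.37 and 4.49.

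Fgf13 showed the widest difference of any gene. It encodes a homologous factor of the FGF family that stays inside the cell and binds voltage-gated sodium channels and microtubules. Its signal was 2.72, 2.25 and 2.45 in the L2P arrays and 9.88, 9.33 and 9.78 in the L1P arrays, a 146-fold fall (-7.19 ± 0.23, adjusted p = 2.73e-09). M1P averaged 9.69, E1KD 9.98 and NMuMG 8.70, so L2P alone among the 5 lines was low. A second probe set for Fgf13, dim in both lines, read 3.66 in L2P and 4.24 in L1P, and its arrays did not overlap.

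Of 15 FGF signalling genes only Fgf13 passed. The receptor Fgfr2 averaged 5.30 in L2P and 4.81 in L1P (0.48, adjusted p = 0.46). Fgfbp1, which releases FGFs from matrix, averaged 7.92 ± 0.18 in L2P and 8.91 ± 0.13 in L1P (-0.99 ± 0.26, adjusted p = 0.431; 0.0216 without the M1P arrays). Flrt2, a leucine-rich repeat surface protein that binds Unc5 and latrophilin receptors, fell 4.64-fold. It read 3.75, 3.90 and 3.81 in L2P and 5.58, 6.13 and 6.37 in L1P (adjusted p = 0.00239), and its other 2 probe sets also had separate arrays. E1KD, at 6.11, was as high as L1P, and NMuMG, at 4.16, nearly as low as L2P. Its family members Flrt1 and Flrt3 did not pass, at -0.10 and -0.24.

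**Figure D3:**
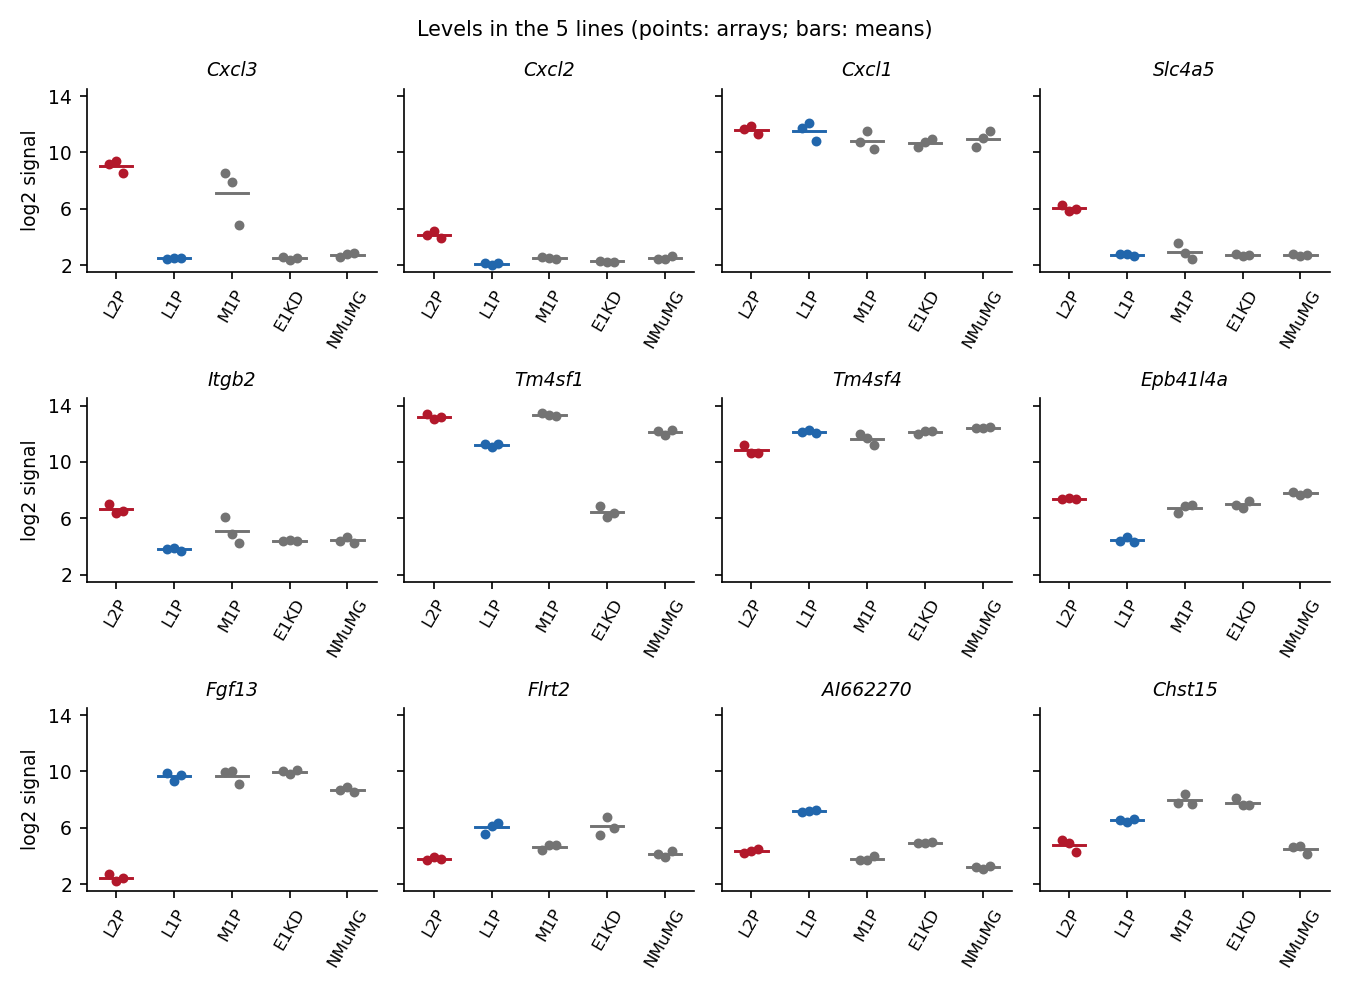
Log2 signal of 12 genes in the 5 lines, with L2P in red, L1P in blue and M1P, E1KD and NMuMG in grey; points are the 3 arrays of a line and bars their mean. Cxcl3, Cxcl2, Slc4a5 and Itgb2 are highest in L2P, Cxcl1 is high in all lines, Epb41l4a is low in L1P alone and Fgf13 is low in L2P alone.

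AI662270, a gene with no role assigned here, read 4.22, 4.36 and 4.49 in L2P and 7.11, 7.21 and 7.25 in L1P. It fell 7.13-fold (-2.83 ± 0.11, adjusted p = 2.03e-08), and its second probe set differed by -3.43, with separate arrays. L1P was the outlying line, since M1P averaged 3.81, E1KD 4.95 and NMuMG 3.19. Magea5 belongs to a family on the X chromosome whose members are normally active in testis and in some tumours. It read 3.49, 3.28 and 3.52 in L2P and 5.43, 5.50 and 5.16 in L1P, a 3.81-fold fall (adjusted p = 0.00044). The family members are nearly identical, so which of them gave the signal is uncertain. A probe set annotated to several of them, 1450542_s_at, also fell and is described below.

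Chst15, a sulfotransferase that makes highly sulfated chondroitin, read 5.17, 4.94 and 4.26 in L2P and 6.58, 6.42 and 6.62 in L1P. It fell 3.36-fold (adjusted p = 0.0086), while M1P, at 7.95, and E1KD, at 7.77, lay above both lung lines and NMuMG, at 4.50, near L2P. The adjusted p for Chst15 was 0.0565 without L1P array 1 and 0.0696 without L1P array 3. Slc18b1, a vesicular polyamine transporter, fell 4.53-fold, with 2.79, 2.95 and 2.91 in L2P and 4.89, 5.49 and 4.80 in L1P. Cyp2j6, a cytochrome P450 of a family with close copies, fell 4.22-fold, with 3.10, 3.19 and 3.38 in L2P and 4.93, 5.78 and 5.18 in L1P. E1KD, at 3.14, was as low in Cyp2j6 as L2P, and the adjusted p of 0.0086 was 0.0518 without L1P array 2 and 0.0611 without L2P array 2. Bscl2, or seipin, which shapes lipid droplets, read 6.05, 5.77 and 6.11 in L2P and 7.55, 7.59 and 7.49 in L1P (adjusted p = 0.035). Its adjusted p was 0.0502 to 0.22 without any 1 L2P, L1P or E1KD array, M1P array 2, or NMuMG array 2 or 3.

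In the order of derivation, E1KD, L1P, L2P, the L1P level mostly lay on the E1KD side. For 23 of the 26 genes, 16 of the rises and 7 of the falls, the L1P mean was nearer to E1KD than the L2P mean was, and for 17 the L1P mean lay within 0.5 of E1KD. The exceptions were Epb41l4a, AI662270 and Cyp2j6, where L2P was the nearer. In 17 genes the 3 L2P arrays lay beyond all 12 arrays of the other lines, and in 5 the 3 L1P arrays lay beyond all others. The 26 genes were picked by these same L2P and L1P arrays, and the shares over all genes were not counted. The counts therefore describe these genes only and are no test.

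Of the 26 genes, 12 (46.2%) also differed between E1KD and NMuMG. That comparison shares no arrays with this one, and 1727 of 18193 genes (9.49%) passed in it. Both comparisons use the error that the shared fit gave each gene, so their calls are not independent. These 12 are 0.695% of the 1727. The count of shared genes was 26 without M1P array 1, 34 without all M1P arrays and 100 with array weights, so the directions below hold for the 12 alone. Among them 5 genes that fell in L2P were higher in E1KD than in NMuMG, namely AI662270, Chst15, Fgf13, Flrt2 and Magea5. A further 4 that rose in L2P were lower in E1KD, namely Car12, Epb41l4a, Gdpd3 and Tm4sf1. Igsf5 rose in L2P and was higher in E1KD, while Cyp2j6 and Slc18b1 fell in L2P and were lower in E1KD. Thus 9 of the 12 ran opposite to the difference between E1KD and NMuMG and 3 ran with it.

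Genes by which the silenced lines are often described did not pass between L2P and L1P. The matrix gene Fn1 read 8.86, 8.25 and 8.0 in L2P and 8.14, 7.21 and 7.43 in L1P, with overlapping arrays (0.78 ± 0.34, 95% interval 0.03 to 1.52, adjusted p = 1). Cdh2, N-cadherin, averaged 9.73 in L2P and 10.09 in L1P (-0.36 ± 0.33), and Vim, vimentin, 13.78 and 13.74, in the same order. The hnRNP E1 target Dab2 differed by -0.02, Fam3c, which encodes the secreted protein ILEI, by -0.22 ± 0.16, its receptor Lifr by 0.18, and the activin subunit Inhba by 0.01. The receptor Erbb3 averaged 10.65 in L2P and 10.43 in L1P, Crip1 differed by 0.11 and Xist by 0.10. Peg3, an imprinted zinc finger gene, read 3.31, 2.71 and 2.54 in L2P and 5.64, 4.40 and 5.84 in L1P, without overlap. Its difference of -2.44 ± 0.64 did not pass (adjusted p = 0.408; 0.0138 without the M1P arrays), and E1KD stood far above both at 11.17.

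Beyond single genes, 40 lists of pathway and cell type genes were counted, and members passed in 3 of them: cytokines and chemokines, FGF signalling and mammary secretory genes. Some other lists leaned one way with no member called by limma, and not all of these are detailed below. In those detailed, 2 cholesterol genes and 0 genes of the other lists had an unadjusted p under 0.05. TEAD, Yap and target genes are not detailed: 14 of 17 were lower, with a median of -0.05 (-0.18 without L2P array 1). Nor are matrix proteases and inhibitors, with 15 of 21 lower and a median of -0.06 (-0.13 without that array). Of all genes, 0.143% passed and 2.28% had an unadjusted p under 0.05. Over all genes 10211 of 18193 were higher in L2P and 7982 lower, and the arrays were separate in 5.86% with L2P higher and in 3.41% with L2P lower. In cholesterol and fatty acid synthesis 23 of 25 genes were lower in L2P, with a median of -0.23; the arrays were separate in 5, among them the desaturase Scd1 at -0.84 and the sterol oxidase Msmo1 at -0.59. Without L2P array 1 the median was -0.26 and 23 of 25 stayed lower. Cholesterol list medians by array, against each gene's L1P mean, were 0.05, -0.35 and -0.19 in L2P and -0.10, 0.13 and -0.02 in L1P. In the unfolded protein response 19 of 21 were lower, with a median of -0.10 and 0 with separate arrays. Without L2P array 1 the median was -0.15, with 17 of 21 lower. By array the medians of this list were -0.10, 0.02 and -0.29 in L2P and -0.09, 0.20 and -0.16 in L1P. In both lists these array medians overlapped between the lines. In hypoxia and glycolysis 18 of 23 were higher, with a median of 0.13; the arrays were separate in 7, including Pgk1 (0.17), Ldha (0.13) and the glucose transporter Slc2a3 (0.29). Without L2P array 1 the hypoxia median was 0.08, with 16 of the 22 members whose listed symbol is the current one higher. In antigen presentation 12 of 13 were higher, with a median of 0.16 and separate arrays in 4, led by the class I genes H2-D1 (0.64) and H2-K1 (0.60); without L2P array 1 the median was 0.11 and 8 of 13 were higher. Members of a pathway share regulation and arrays, so these counts describe the lists and are no test.

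**Figure D4:**
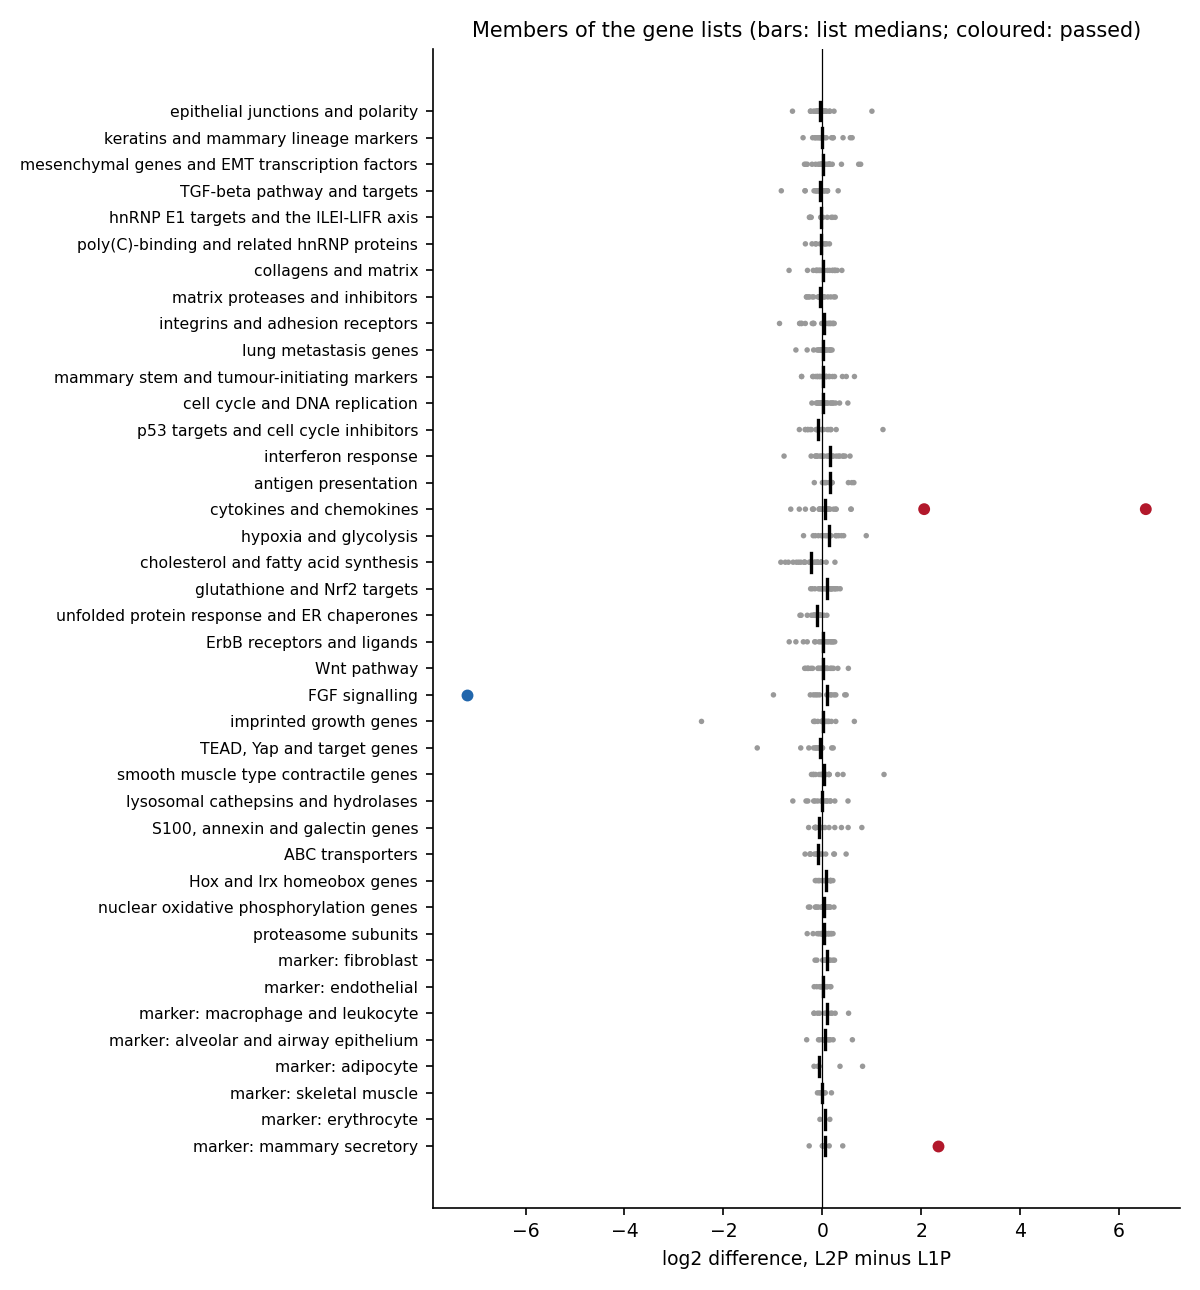
Log2 differences, L2P minus L1P, of the members of 40 gene lists; grey points did not pass, red points rose, blue points fell, and black bars are list medians. List medians lie between -0.23 and 0.16, and the passing members are Cxcl3 and Cxcl2, Fgf13, and Xdh.

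Among 10092 probe sets with no symbol or several, 2 passed (0.0198%) and 231 had an unadjusted p under 0.05. Probe set 1450542_s_at, which carries several symbols, read 4.04, 3.69 and 3.82 in L2P and 7.54, 7.54 and 7.34 in L1P, a 12.3-fold fall (-3.62 ± 0.15, adjusted p = 1.66e-08). Probe set 1425546_a_at, also with several symbols, read 8.68, 8.0 and 7.76 in L2P and 4.27, 3.87 and 3.86 in L1P, a 17.6-fold rise (4.14 ± 0.57, adjusted p = 0.0234). The first is annotated to Magea1, Magea2, Magea3, Magea5, Magea6 and Magea8 and the second to Trf and Srprb, so neither is given to a single gene.

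The 26 genes lay on 15 chromosomes and no neighbouring measured genes passed together in 1 direction. Chromosome medians of the difference ran from -0.008 to 0.052. Of the 26 genes, 8 had other probe sets, 11 in all, and 10 of these differed in the same direction with separate arrays. The exception was the Car12 probe set 1446517_at, at -0.20. Some of the 10 differed little: Bscl2 by -0.49, Cyp2j6 by -0.53, Fgf13 by -0.58 and Car12 by 0.44. The probe sets used for these genes differed by -1.57, -2.08, -7.19 and 1.63. The same arrays picked the genes, and the share over all probe sets was not counted.

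The 43 genes that passed without the M1P arrays, and not with all 15, comprised 25 higher and 18 lower in L2P, 25 of them at least 2-fold, and all 43 had separate arrays. These genes, like the 11 that leaving out L2P array 1 added, were singled out after their values were seen. Both groups were picked by L2P and L1P arrays, so their counts of separate arrays are no added support. Over all genes the arrays were separate in 5.86% with L2P higher and in 3.41% with L2P lower. Mylk, the myosin light chain kinase, averaged 8.16 ± 0.16 in L2P and 6.91 ± 0.32 in L1P (adjusted p = 0.151 with all arrays; 0.0382 without M1P). Marveld2, tricellulin, of the corners where epithelial cells meet, averaged 5.17 in L2P and 4.17 in L1P (0.135; 0.0255). F3, the tissue factor that starts coagulation, averaged 7.11 ± 0.30 in L2P and 8.42 ± 0.20 in L1P (0.0745; 0.0154).

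The 11 genes added by leaving out L2P array 1 were 9 higher and 2 lower, and 9 of the 11 had separate arrays. That separation and the levels given here still include L2P array 1. They include Slfn4, a Schlafen gene of myeloid cells, at 4.83 in L2P and 3.11 in L1P (0.113 with all arrays; 8.57e-05 without that array). They also include Inhbb, an activin subunit, at 5.28 in L2P and 6.95 in L1P (0.187; 0.0144), and the chemokine Ccl9, at 5.25 in L2P and 6.29 in L1P (0.113; 0.0287).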

How the data were processed

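The log2 signals deposited by the authors, for 45101 probe sets on 15 arrays (3 per line, 100 ng total RNA each), were left as they stood. Per the submitters' processing notes, the tools were the Affymetrix Expression Console, RMA and MAS5, with versions and roles not given in the sources used here. Values ran from 1.53 to 14.68, with array medians of 4.17 to 4.26. Symbols came from the platform annotation, updated by Entrez identifier for 34741 probe sets (204 kept the platform's); 34945 had 1 symbol, 932 several, 9160 none and 64 were controls. limma 3.58.1 in R 4.3.3 fitted 1 coefficient per line to all 15 arrays (10 residual and 2.98 prior degrees of freedom), with two-sided moderated tests adjusted over 18193 genes. The test was tried on simulated data with independent normal noise, of the same SD for a gene in every array. Arrays that scatter more, such as L2P array 1, were not simulated, so the trial does not bear on their part in the calls.

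Genes were named by rule: 13 genes set by hand, up to 14 largest rises and 14 largest falls that passed with separate arrays, and passing list members. The genes, lists and tests were chosen with earlier results of these data known. The lists covered the pathways and cell types on the axis of the plot of gene lists. Alternatives changed the arrays, scaling, filter, probe set, weights, prior and replicate block. Arrays carry no read depth; 3 arrays per line limit precision.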

Additional observations from a re-analysis of the deposited data

How the results depend on the processing

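None of the 26 genes changed direction in any setting. Of them, 17 passed under every planned setting that tested them; Bscl2, Cfi, Casp1, Ifitm3, Car12, Tm4sf4, Xdh, Chst15 and Cyp2j6 lost the call in some, with adjusted p reaching 0.22 (Bscl2), 0.188 (Cfi), 0.131 (Casp1), 0.158 (Ifitm3), 0.178 (Car12), 0.0733 (Tm4sf4), 0.0695 (Xdh), 0.0696 (Chst15) and 0.0611 (Cyp2j6). The main counts were 26 genes, 17 rises, 9 falls, 26 at least 2-fold, 2 probe sets without a single symbol, and 12 genes shared with E1KD against NMuMG. In that order without the M1P arrays they were 69, 42, 27, 51 and, for shared genes, 34. With array weights they were 183, 109, 74, 70, 10 and 100. With genes of mean signal over 5 only (9705 tested, 11 of the 26 left out by construction) they were 15, 10, 5, 15 and, for shared genes, 7. Without the M1P arrays and L2P array 1, a setting chosen after seeing the data, they were 76, 48, 28, 56, 5 and 38. With L2P and L1P alone, 16 genes fell. The silenced lines alone, quantile scaling, and trend with robust fitting each left 1 probe set. Leaving out 1 array at a time gave 18 to 53 genes, 12 to 31 rises, 6 to 22 falls, 18 to 40 at least 2-fold, 1 to 4 probe sets and 10 to 26 shared genes; the highest gene counts came without M1P array 1. The causes were not tested beyond the arrays or genes each setting removes.

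Deviations of same-numbered L2P and L1P arrays correlated at 0.55, -0.14 and 0.59, and those of differently numbered arrays at -0.63 to 0.5. The numbers were taken as names in the main fit, and an effect shared by same-numbered arrays was not tested beyond a replicate block. With that block 30 genes passed, 20 higher and 10 lower, 25 of the 26 among them. The other, Bscl2, had an adjusted p of 0.071. Signs turned only among genes that did not pass. Leaving out 1 array at a time gave differences of -0.13 to 0.13 for Dab2, -0.05 to 0.09 for Vim, -0.1 to 0.24 for Xist, -0.12 to 0.12 for Inhba and -0.01 to 0.2 for Crip1. Dab2 was at 0 after scaling to the 75th percentile. Vim was at -0.13 with the probe set of largest variance, -0.03 with array weights and -0.01 without the M1P arrays and L2P array 1. Xist was at -0.09 with array weights and -0.1 without the M1P arrays and L2P array 1.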
